A study of Homo sapiens with 12 samples.

Results

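PEG10 and 9 other imprinted genes, SGCE, PEG3, H19, IGF2, MEG3, DLK1, MEST, NNAT and NDN, were followed by symbol through 12 RNA-seq libraries, as 10 of the 25647 genes listed in every library. They were chosen from the known imprinted genes with the values of these libraries already known. The list has no threshold, and the values that led to it are not recorded. The TSA comparison, which holds the largest values of PEG10, is therefore given as a description of these libraries and supports no test of the 10 genes. The libraries came from 3 human carcinoma lines: MHCC97H from liver, A549 from lung and HCT116 from colon. Each line was left untreated or was given 1 of 3 compounds. TSA (trichostatin A, 1 µM) blocks histone deacetylases, GSK126 (50 µM) blocks EZH2, which methylates histone H3 for Polycomb repression, and S2101 (100 µM) blocks LSD1, which removes methyl groups from histone H3. Each line gave 1 library per condition, so the 3 lines were the replicates of a condition, and no culture was repeated. The medium was DMEM for MHCC97H and A549 but RPMI for HCT116, and medium and line cannot be told apart. The length of treatment and the vehicle are not given in the labels.

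An imprinted gene is transcribed mainly from the copy inherited from one parent. The choice is set by DNA methylation laid down in the egg or the sperm at a control region, and neighbouring genes in a cluster often share that region. PEG10, IGF2, DLK1, MEST, NNAT, NDN, PEG3 and SGCE are known to be expressed from the paternal copy, and the noncoding RNAs H19 and MEG3 from the maternal copy. Imprinted expression of several of these genes depends on the tissue, and loss of imprinting is often described in tumours. The deposited counts do not separate the parental copies, so all values below are totals over both. In bulk RNA, fewer cells with a transcript and less transcript per cell cannot be told apart.

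Library depth ran from 14468304 to 19061367 counted reads, at which 3 reads correspond to 0.157 to 0.207 CPM (the reads of a gene scaled to a common library total). Lineage markers fitted the labels unevenly: in the untreated libraries, 7 of 10 liver markers reached 1 CPM in MHCC97H, with TTR at 0 reads. In A549, 2 of 8 lung markers did, with NKX2-1 and SFTPA1 at 0. In HCT116, 1 of 8 colon markers did, with CDX1 at 0, whereas 6 of the 8 reached it in MHCC97H, led by KRT20 at 1032 CPM. The A549 S2101 library stood apart. Genes that had 0 reads in an untreated library and at least 50 under TSA in the same line were at 8.10% of their TSA level in that library, with all 56 of them present. In the other 5 libraries treated with GSK126 or S2101, such genes were at 1.02 to 3.94% of the TSA level. Values under S2101, differences between lines and counts of calls are also given without that library below, where they rest on it.

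The genes lie in 7 places on GRCh38.p14, per RefSeq. SGCE (chr7:94584980-94656133) and PEG10 (chr7:94656325-94669695) are divergent neighbours with 192 bases between them. MEST lies at chr7:130486175-130506465. H19 (chr11:1995176-2001266) and IGF2 (chr11:2129117-2149566) are 127851 bases apart. DLK1 (chr14:100726892-100738224) and MEG3 (chr14:100826108-100861026) are 87884 bases apart. NDN lies at chr15:23685400-23687305, PEG3 at chr19:56810082-56840726 and NNAT at chr20:37521250-37523690. How the reads were counted over overlapping genes and strands is not given in the sources used here. This touches NNAT, which lies wholly inside BLCAP, IGF2, which overlaps IGF2-AS over 8155 bases, MEST, which overlaps MESTIT1 over 4803 bases, and PEG3, which shares 30645 bases with ZIM2.

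Promoter sequences were held for 4 of the 10 genes. Of these, H19, MEG3 and NDN are shown because most reads of each came from a single line, as described below. SGCE, IGF2, DLK1 and PEG3 also had most of their reads in a single line, but no promoter sequence was held for them. Each runs from 250 bases before to 50 bases after the RefSeq start, 5′ to 3′ on the gene's strand, with every CG dinucleotide, the site of DNA methylation, in capitals. H19 is on the minus strand at chr11:2001217-2001516, MEG3 on the plus strand at chr14:100825858-100826157 and NDN on the minus strand at chr15:23687256-23687555.
H19: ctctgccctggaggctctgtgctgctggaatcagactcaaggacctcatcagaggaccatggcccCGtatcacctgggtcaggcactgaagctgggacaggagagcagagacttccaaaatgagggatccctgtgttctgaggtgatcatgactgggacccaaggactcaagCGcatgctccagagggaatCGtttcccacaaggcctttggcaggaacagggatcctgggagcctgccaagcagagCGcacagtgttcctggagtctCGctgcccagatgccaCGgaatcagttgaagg
MEG3: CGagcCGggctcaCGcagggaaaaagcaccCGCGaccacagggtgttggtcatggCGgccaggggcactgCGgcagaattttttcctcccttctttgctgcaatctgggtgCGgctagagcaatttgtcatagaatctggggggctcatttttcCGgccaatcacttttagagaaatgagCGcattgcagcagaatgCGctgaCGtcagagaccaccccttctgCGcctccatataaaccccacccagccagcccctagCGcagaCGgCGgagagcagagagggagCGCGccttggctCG
NDN: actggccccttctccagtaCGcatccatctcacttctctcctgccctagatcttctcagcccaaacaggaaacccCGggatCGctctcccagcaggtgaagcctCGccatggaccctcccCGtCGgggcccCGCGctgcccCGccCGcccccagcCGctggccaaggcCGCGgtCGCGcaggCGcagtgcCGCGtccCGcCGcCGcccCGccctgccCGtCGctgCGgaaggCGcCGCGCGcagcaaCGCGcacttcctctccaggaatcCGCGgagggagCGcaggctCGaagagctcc
The H19 stretch holds 6 CG dinucleotides, the MEG3 stretch 19 and the NDN stretch 35. Of 35116 promoters of the same length, with a median of 14, 66.3% hold at least as many as H19, 42.9% as many as MEG3 and 14.1% as many as NDN. The GC box GGGCGG, searched on both strands, occurs 4 times in the NDN stretch and is not in the other two stretches, and 45.0% of all promoters hold it. TATAAA occurs once in the MEG3 stretch only, among 11.5% of all promoters. GCCATNTT, the core of the YY1 motif, is in none of the 3 stretches and in 6.58% of all promoters.

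PEG10, a gene derived from a retrotransposon whose protein resembles viral Gag and Gag-Pol and which is needed for the placenta, was the member with the largest response to TSA. Its level in RPKM (reads scaled to the library total and to the length of the longest transcript) was 1.43 in untreated MHCC97H and 333 under TSA. In A549 it went from 31.7 to 290.5 RPKM and in HCT116 from 6.22 to 136 RPKM. All 3 TSA libraries lay above all 9 others, and the 3 lines, which spanned 1.43 to 31.7 RPKM untreated, spanned 136 to 333 RPKM under TSA. The within-line folds were 233 in MHCC97H, 9.17 in A549 and 21.9 in HCT116, so that the line with the lowest untreated level had the largest fold. These folds rest on 152, 3292 and 673 untreated reads. Ranked by RPKM among all genes of a library, PEG10 moved from place 11210 to 161 in MHCC97H, from 2285 to 192 in A549 and from 8037 to 416 in HCT116. Under TSA it took 0.221%, 0.193% and 0.0904% of all counted reads in MHCC97H, A549 and HCT116. The fitted log2 change over the 3 lines was 5.56 with a standard error (SE) of 1.09, the 68th largest of the 16394 genes tested.

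GSK126 and S2101 left PEG10 within the range of the untreated lines except in A549 under S2101 and in MHCC97H under S2101. Under GSK126 it was at 1.84, 21.8 and 3.15 RPKM in MHCC97H, A549 and HCT116. Under S2101 it was at 0.679 RPKM in MHCC97H, 50.4 in A549 and 3.83 in HCT116. The mean level was 253 ± 104 RPKM under TSA, 18.3 ± 27.9 under S2101, 13.1 ± 16.3 in untreated cells and 8.93 ± 11.2 under GSK126 (SD, n = 3 lines). The last 3 of these did not differ beyond the spread between lines, and the place of S2101 above untreated rests on the A549 S2101 library. Over MHCC97H and HCT116 alone PEG10 was at 235 ± 139 RPKM under TSA, 3.82 ± 3.39 untreated, 2.50 ± 0.927 under GSK126 and 2.26 ± 2.23 under S2101 (SD, n = 2 lines).

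SGCE encodes epsilon-sarcoglycan, a membrane protein whose loss from the paternal copy causes myoclonus-dystonia, and shares its imprinted control region with PEG10. SGCE stood at 0.733, 22.4 and 8.31 RPKM in untreated MHCC97H, A549 and HCT116. Under TSA it stood at 10.6, 12.1 and 9.54 RPKM in the same order. It was thus 14.4-fold higher in MHCC97H, at 0.540 of its untreated level in A549 and at 1.15 of it in HCT116. The TSA libraries lay within the range of the untreated ones, and the fitted log2 change was 1.31 (SE 0.92). Under GSK126 SGCE was at 1.37, 26.4 and 8.78 RPKM, and under S2101 at 0.470, 22.5 and 9.47 RPKM.

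The ratio of PEG10 to SGCE in RPKM was higher under TSA in every line. It was 1.95 in MHCC97H, 1.41 in A549 and 0.749 in HCT116 untreated, and 31.5, 24.0 and 14.3 under TSA. Under GSK126 it was below the untreated ratio in all 3 lines, at 1.35, 0.825 and 0.359. Under S2101 it was below it in MHCC97H at 1.45 and in HCT116 at 0.405, and above it in A549 at 2.24.

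**Figure D1:**
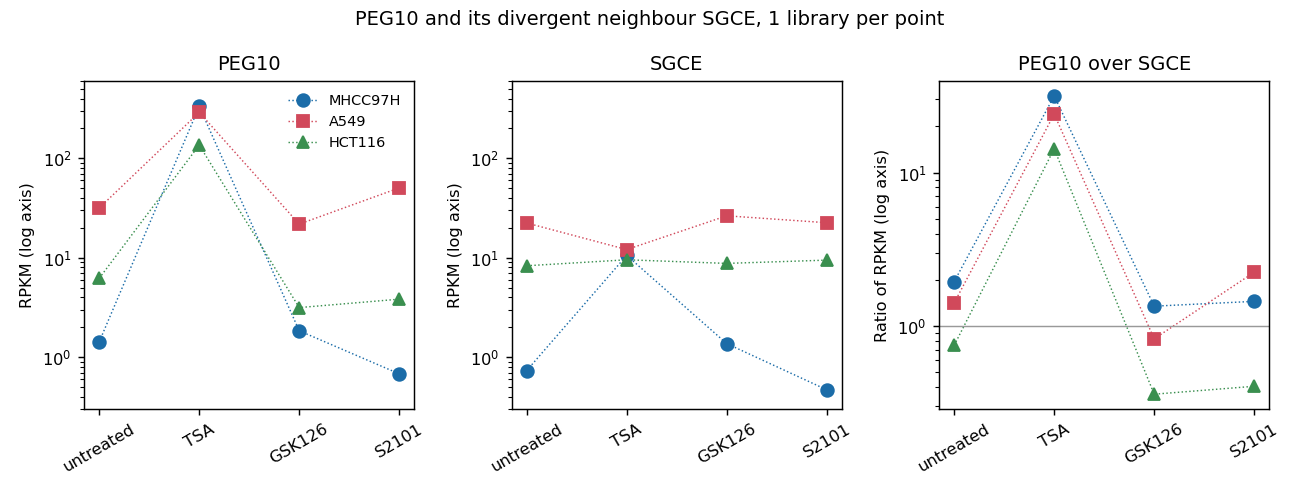
RPKM of PEG10 and SGCE and their ratio, on log axes, against condition, with 1 point per library and colour and marker by line. PEG10 reached 136 to 333 RPKM in the 3 TSA libraries, SGCE met at 9.54 to 12.1 RPKM there, and the ratio lay between 14.3 and 31.5 under TSA and at or below 2.24 elsewhere.

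IGF2 encodes a fetal growth factor of the insulin family, and H19 is the noncoding RNA transcribed beside it under a shared, CTCF-bound control region. IGF2 had 2 reads in untreated MHCC97H and 85 under TSA, a ratio with a 95% counting interval of 12.5 to 391. In A549 it went from 0.382 to 8.43 RPKM and in HCT116 from 5.48 to 11.1 RPKM, which is 22.1-fold and 2.02-fold. IGF2 was higher under TSA in each of the 3 lines, although MHCC97H under TSA, at 1.12 RPKM, remained below untreated HCT116. The fitted log2 change was 3.38 (SE 0.83).

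H19 was at 222 RPKM in untreated MHCC97H and at 117 under TSA. In A549 it went from 2.01 to 5.84 RPKM and in HCT116 from 1.72 to 3.32 RPKM. H19 was thus lower under TSA in the line that had most of it, at 0.528 of the untreated level, and 2.91-fold and 1.94-fold higher in the other two. The fitted log2 change of 0.57 (SE 0.53) averaged over these opposite directions. The ratio of H19 to IGF2 in RPKM went from 5.25 to 0.692 in A549, and stood at 0.313 and 0.300 in HCT116 without and with TSA. The fall in A549 was not particular to TSA: the ratio was 0.970 under GSK126 and 0.641 in the S2101 library that stood apart. In HCT116 it was 0.127 under GSK126 and 0.206 under S2101.

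MEG3 is a noncoding RNA described as a tumour suppressor, and DLK1, at the other end of its cluster, encodes a membrane protein of the NOTCH ligand family found in the fetus and in some tumours. MEG3 was almost confined to A549, where it went from 2.62 RPKM to 17.1 under TSA. In MHCC97H it went from 0.0770 to 0.197 RPKM (12 and 28 reads), and in HCT116 from 0.0568 to 0.166 RPKM (9 and 24 reads). All 3 lines were higher under TSA, by 2.56-fold, 6.51-fold and 2.92-fold in MHCC97H, A549 and HCT116, and the fitted log2 change was 1.86 (SE 0.27). DLK1 had 0 reads in the 3 untreated libraries and under TSA 14 reads in MHCC97H, 3 in A549 and 0 in HCT116. Against a floor of 3 reads for the untreated group, the TSA group was 6.13-fold higher. This value leaves out the counting error of the TSA reads, most of which came from MHCC97H. The single DLK1 read in each of the GSK126 and S2101 libraries of A549 lies under that floor.

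MEST, which encodes a hydrolase-like enzyme of the mesoderm, had reads in all 12 libraries. It was at 3.87, 17.6 and 17.2 RPKM in untreated MHCC97H, A549 and HCT116, and at 7.98, 16.9 and 10.4 RPKM under TSA. The fitted log2 change under TSA was -0.05 (SE 0.29), with MHCC97H 2.07-fold higher and HCT116 at 0.601 of its untreated level. NNAT, which encodes neuronatin, a small membrane protein of the developing brain, had 6 to 37 reads per library. NNAT was at 0.512, 1.76 and 0.275 RPKM untreated and at 0.510, 0.554 and 0.501 RPKM under TSA.

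NDN encodes necdin, a MAGE family protein of the Prader-Willi region, and PEG3 a zinc finger protein. NDN had reads in A549 only, 6 untreated, 17 under TSA, 2 under GSK126 and 1 under S2101, and 0 in the 8 libraries of the other lines. Its ratio of TSA to untreated in A549 was 2.99 with a 95% counting interval of 1.13 to 9.28. PEG3 had 5 reads in A549 and 1 in MHCC97H under TSA, 1 in A549 under S2101 and 0 in the other 9 libraries. For PEG3 the 6 TSA reads are 2.16-fold above a floor of 3 reads for the untreated group. This value leaves out the counting error of the 6 reads.

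**Figure D2:**
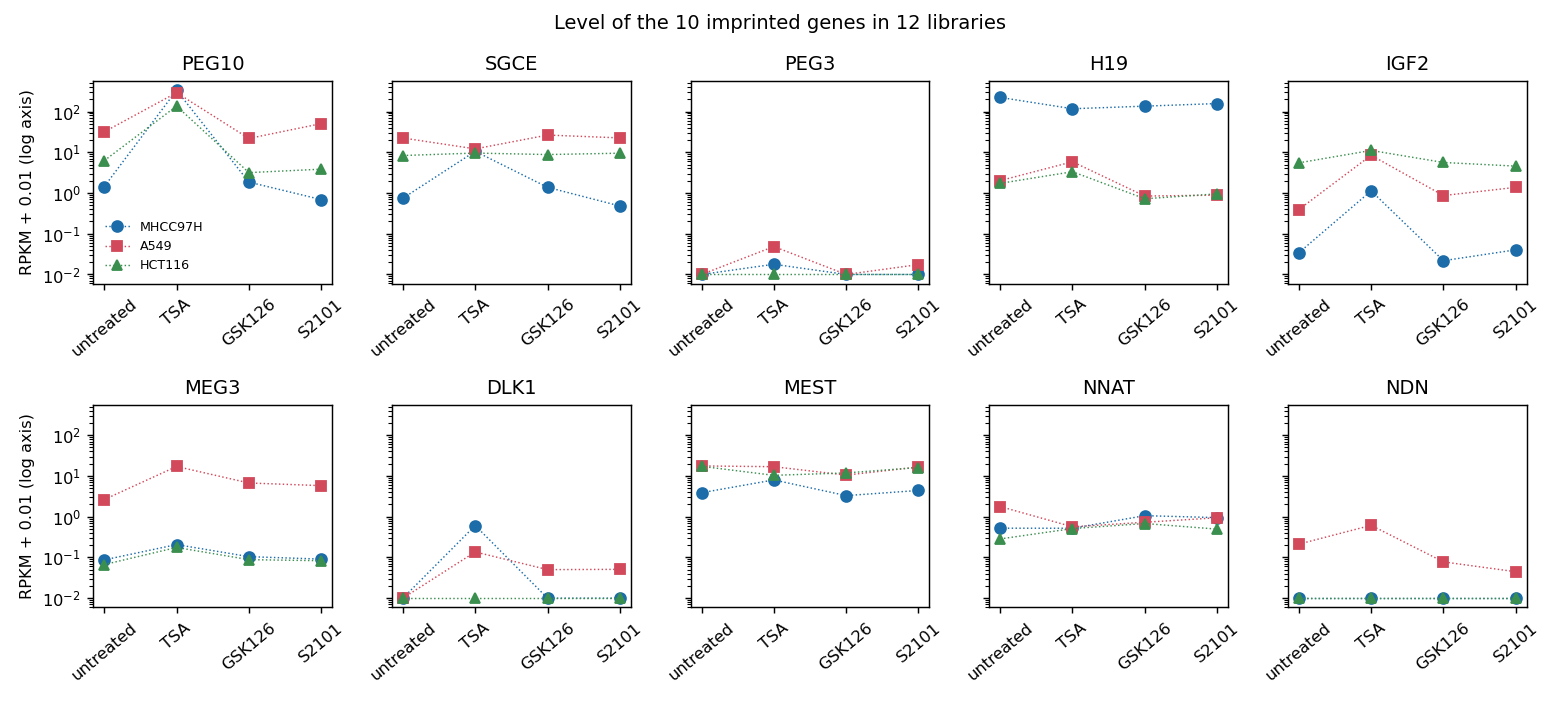
RPKM plus 0.01 on a log axis for each of the 10 genes in the 12 libraries, by condition, with colour and marker by line. PEG10 and IGF2 are higher under TSA in every line, H19 is high in MHCC97H (117 to 222 RPKM) and MEG3 in A549 (2.62 to 17.1 RPKM), and points at the lower edge of PEG3, DLK1 and NDN are libraries with 0 reads.

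Of the 10 genes, 7 passed the filter on low counts, and PEG3, DLK1 and NDN did not. A gene is called below where its adjusted p in the fit over all genes is under 0.05. Under TSA this threshold is only a label on the values already described: PEG10, IGF2 and MEG3 lay past it on the higher side and none of the 7 on the lower. Over all genes tested, 34.1% were past it under TSA, 17.1% higher and 17.1% lower, and since TSA values were in view when the genes were chosen nothing is read from the members' count. The count was 3 of 7 without HCT116, 2 without MHCC97H and 0 without A549. Over all genes, these fits called 6495 of 16248, 1152 of 16347 and 12 of 16202. The members' count was also 0 in a fit of the 6 TSA and untreated libraries alone, which called no gene at all. There 4768 genes had an unadjusted p under 0.05, PEG10, IGF2 and MEG3 among them. Without the A549 S2101 library the members' count was 3, beside 4729 of 16875 genes called.

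GSK126 gave no call among the 7 genes, and 0% of all genes were called (2784 of 16394 had an unadjusted p under 0.05, and DESeq2 called 1206). MEG3 and H19 had the largest fitted changes. MEG3 was at 0.0944, 6.71 and 0.0782 RPKM in MHCC97H, A549 and HCT116 under GSK126. Its log2 change was 0.80 (SE 0.27, adjusted p = 0.18). The values lay above untreated in 3 of 3 lines, but only in A549 by more than counting error. MEG3 reads in A549 went from 399 to 1014, a ratio with a counting interval of 2.28 to 2.88. In MHCC97H they went from 12 to 15 (interval 0.536 to 2.87) and in HCT116 from 9 to 11 (0.518 to 3.76). H19 was at 135, 0.830 and 0.713 RPKM, lower in 3 of 3 lines at 0.610, 0.414 and 0.416 of the untreated level, with a log2 change of -1.01 (SE 0.53, adjusted p = 0.383).

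MEST was at 3.28, 10.5 and 11.9 RPKM under GSK126, lower in 3 of 3 lines, with a log2 change of -0.56 (SE 0.29, adjusted p = 0.377). The fitted change of PEG10 was -0.54 (SE 0.88, adjusted p = 0.842), with MHCC97H 1.29-fold higher and the other lines lower. IGF2 was at 0.855 RPKM in A549, 2.24-fold higher, and at 5.60 in HCT116, 1.02-fold. When the TSA libraries were left out of the fit, 13.5% of 15763 genes were called under GSK126. In that fit H19 (log2 change -1.01, SE 0.17, adjusted p = 0.0189) and MEST (-0.53, SE 0.14, adjusted p = 0.0393) were called lower and MEG3 (0.98, SE 0.24, adjusted p = 0.0334) was called higher, while PEG10, SGCE, IGF2 and NNAT were not called. A fit of the 6 GSK126 and untreated libraries alone called 275 of 14530 genes but no member. There the adjusted p was 0.0501 for H19, 0.0929 for MEG3 and 0.117 for MEST. DESeq2, which called 1206 genes, called no member either.

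S2101 gave no call among the 7 genes, and 0% of all genes were called (821 of 16394 had an unadjusted p under 0.05, none of the 7 among them, and DESeq2 called 23). H19 was at 157, 0.875 and 0.941 RPKM, lower than untreated in 3 of 3 lines, with a log2 change of -0.81 (SE 0.52, adjusted p = 0.942), and -0.53 (SE 0.59, adjusted p = 1.0) without the A549 S2101 library. PEG10 had a fitted change of -0.16 (SE 0.88, adjusted p = 1.0), and -1.15 (SE 0.99, adjusted p = 1.0) without it. In that library PEG10 was 1.59-fold, IGF2 3.58-fold and MEG3 2.20-fold above untreated A549. The genes silent before TSA were at 8.10% of their TSA level there, and their part in these 3 values was not tested. Without it, the log2 change of IGF2 went from 0.46 (SE 0.77) to 0.04 (SE 0.97), and that of MEG3 from 0.59 (SE 0.27) to 0.54 (SE 0.36). In the fit without the TSA libraries 2250 of 15763 genes had an unadjusted p under 0.05 for S2101. Among them were 2 of the 7, and 0 genes were called. There H19 was at -0.81 (SE 0.17, adjusted p = 0.192) and MEG3 at 0.75 (SE 0.24, adjusted p = 0.265).

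**Figure D3:**
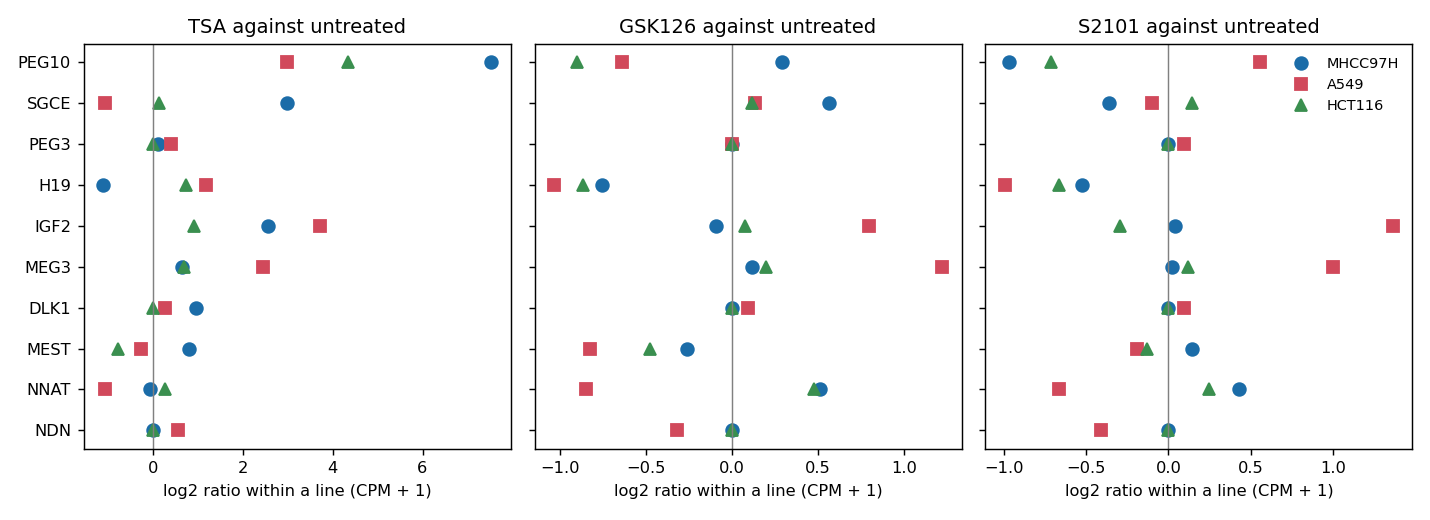
Within-line log2 ratio of each treated library to the untreated library of the same line, on TMM-scaled CPM plus 1, for the 10 genes and 3 compounds, with colour and marker by line; the axis of the TSA panel is wider. PEG10 lies at 2.97 to 7.53 under TSA in all 3 lines, and H19 lies below 0 in all 3 lines under GSK126 and under S2101.

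Each line was compared with the mean of the other two over the 4 conditions. The 4 libraries of a line are not repeat cultures, and the p-values describe the spread of the fit over conditions. H19 was called higher in MHCC97H (log2 difference 6.87, SE 0.41, adjusted p = 4.26e-06), with 117 to 222 RPKM there and 0.713 to 5.84 RPKM in the 8 libraries of A549 and HCT116. IGF2, its neighbour, was called lower in the same line (log2 difference -4.76, SE 0.72, adjusted p = 0.000601). MEG3, MEST and SGCE were also called lower in MHCC97H, by -2.72 (SE 0.22), -1.47 (SE 0.23) and -2.68 (SE 0.78) on the log2 scale. In all, 5 of the 7 genes were called in MHCC97H, beside 51.8% of all genes. Without the A549 S2101 library 5 were called, beside 7607 of 16875 genes. The call of SGCE was lost without the untreated (adjusted p = 0.102), the GSK126 (adjusted p = 0.101) or the S2101 libraries (adjusted p = 0.0906), which left 4. Over all genes these fits called 6121 of 16118, 6479 of 16127 and 5598 of 16074.

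A549 had the highest MEG3, with a log2 difference of 6.12 (SE 0.18, adjusted p = 3.1e-07), and 2.62 to 17.1 RPKM against at most 0.197 in the other lines. PEG10 (log2 difference 3.14, SE 0.70, adjusted p = 0.00699) and SGCE (2.41, SE 0.63, adjusted p = 0.0147), the neighbours on chromosome 7, were both called higher in A549. MEST was called higher there too (0.89, SE 0.21), and H19 lower (-3.08, SE 0.45). These 5 calls of 7 stand beside 39.4% of all genes. The call of PEG10 was lost without the GSK126 libraries (3.12, SE 0.96, adjusted p = 0.0545). It was also lost without the condition term (0.83, SE 1.51, adjusted p = 0.7455). Without the A549 S2101 library 4 of the 5 calls remained, beside 4331 of 16875 genes called in all. The difference of SGCE went to 2.20 (SE 0.77, adjusted p = 0.0708) and that of PEG10 to 2.47 (SE 0.73, adjusted p = 0.0395). Without all 3 untreated, all 3 GSK126 or all 3 S2101 libraries, 3 members were called. Over all genes these fits called 4027 of 16118, 4094 of 16127 and 3444 of 16074. Without all 3 TSA libraries, 6 members were called, beside 8233 of 15763 genes.

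HCT116 had the highest IGF2, with 4.56 to 11.1 RPKM and a log2 difference of 4.07 (SE 0.57, adjusted p = 0.000358). MEG3 (-3.40, SE 0.22) and H19 (-3.79, SE 0.47) were called lower in HCT116 and MEST (0.58, SE 0.21, adjusted p = 0.0442) higher. These 4 calls of 7 stand beside 53.4% of all genes, and the call of MEST was lost without the A549 S2101 library (0.59, SE 0.24, adjusted p = 0.0758). It was also lost without the untreated (adjusted p = 0.153), the GSK126 (adjusted p = 0.201) or the S2101 libraries (adjusted p = 0.177). The order of the lines in PEG10 was A549, HCT116, MHCC97H untreated, but MHCC97H was the highest under TSA. Without the TSA libraries the difference of PEG10 in MHCC97H was -3.05 (SE 0.39, adjusted p = 0.000135), against -1.90 (SE 0.80, adjusted p = 0.0745) with them.

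The number of the 10 genes at 1 CPM or more in untreated MHCC97H, A549 and HCT116 was 4, 7 and 5. Under TSA it was 6, 7 and 6, under GSK126 5, 6 and 5, and under S2101 4, 7 and 5. DLK1 and PEG3 were below 1 CPM in all 12 libraries, and NDN reached it only in A549 under TSA.

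Other genes of the same clusters, like the genes tested as a whole, were called in both directions under TSA. Of 45 listed neighbours 30 were tested, and 7 were called higher and 7 lower, with a median log2 change of 0.11 against 0.07 over all genes. Over all genes tested, 17.1% were called higher and 17.1% lower, and no excess is read from the counts of this or the following lists. MEG9, a noncoding RNA downstream of MEG3, had 0, 14 and 0 reads in untreated MHCC97H, A549 and HCT116 and 2, 106 and 46 under TSA. RTL1, a retrotransposon-derived gene of the same cluster, had 0, 3 and 0 reads untreated and 31, 27 and 0 under TSA. CPA4, a carboxypeptidase gene near MEST, went from 0.508, 2.33 and 6.54 RPKM to 8.33, 22.3 and 113 (log2 change 3.58, SE 0.45, adjusted p = 0.00179). TFPI2, a protease inhibitor gene near SGCE, went from 0.892, 55.0 and 0.0501 RPKM to 13.1, 195 and 0.247 (log2 change 2.57, SE 0.58, adjusted p = 0.0108).

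Among 25 imprinted genes elsewhere in the genome 23 were tested, and 6 were called higher and 2 lower under TSA, with a median log2 change of 0.33. Over all genes, 17.1% were called higher and 17.1% lower. KCNK9, a potassium channel gene, and TRAPPC9, its neighbour on chromosome 8, changed by 4.55 (SE 0.89, adjusted p = 0.00623) and 1.85 (SE 0.21, adjusted p = 0.00145). NAP1L5, a retrogene of the nucleosome assembly family, changed by 2.62 (SE 0.34, adjusted p = 0.00191) and FAM50B, another retrogene, by 1.92 (SE 0.51, adjusted p = 0.0204).

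Genes that, like PEG10, descend from the gag gene of LTR retrotransposons included 16 tested of 21 listed, and 7 were called higher and none lower under TSA, with a median log2 change of 0.59. These calls stand beside 17.1% called higher and 17.1% lower over all genes. ZCCHC12 went from 0.169, 0.115 and 1.22 RPKM in MHCC97H, A549 and HCT116 to 93.8, 42.8 and 48.7 (log2 change 7.07, SE 1.22, adjusted p = 0.00417). ARC, whose protein forms capsids in neurons, went from 0.232, 0.0433 and 3.05 RPKM to 1.48, 7.23 and 32.5 (log2 change 3.88, SE 0.66, adjusted p = 0.00393). RGAG1 went from 0.0230, 0 and 0.0113 RPKM to 0.679, 0.596 and 0.395. RTL1, given above, is on this list too.

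Of the factors that keep imprints in dividing cells, those called were lower. Of 20 listed 17 were tested, and none was called higher and 8 lower under TSA, with a median log2 change of -0.62. These calls stand beside 17.1% called higher and 17.1% lower over all genes. UHRF1, which brings the maintenance methyltransferase to replicating DNA, went from 45.2, 39.9 and 73.1 RPKM to 9.09, 13.2 and 26.1 (log2 change -1.89, SE 0.48, adjusted p = 0.0171). DNMT1, that methyltransferase, changed by -1.02 (SE 0.25, adjusted p = 0.0145), the de novo methyltransferase gene DNMT3A by -1.25 (SE 0.21, adjusted p = 0.00405) and the chromatin remodeller HELLS by -1.27 (SE 0.34, adjusted p = 0.0202). DNA methylation was not measured, and whether these levels bear on the imprinted genes was not tested.

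The partners of single members were mixed under TSA, where 17.1% of all genes were called higher and 17.1% lower. Of 10 genes for IGF2 receptors, their adaptors and the RNA-binding proteins of IGF2, all tested, 3 were called higher and 2 lower (median log2 change -0.38). IGF2BP1, which binds IGF2 mRNA, changed by -2.68 (SE 0.90, adjusted p = 0.0462), LIN28A by 2.20 (SE 0.55, adjusted p = 0.0164), IRS2, an adaptor of the insulin and IGF1 receptors, by 1.24 (SE 0.34, adjusted p = 0.0223) and IGF2BP2 by -0.85 (SE 0.14, adjusted p = 0.00328). Of 12 NOTCH pathway genes, all tested, 3 were called higher and none lower (median 0.37). These were the ligands DLL3 and DLL4, at 4.02 (SE 1.33, adjusted p = 0.0435) and 3.75 (SE 0.83, adjusted p = 0.01), and HEY1, a target of NOTCH, at 2.08 (SE 0.47, adjusted p = 0.011). DLL3 went from 0.0261 to 5.17 RPKM in MHCC97H, but from 3.82 to 5.25 in A549 and from 0 to 0.140 in HCT116. Of 11 sarcoglycan and dystroglycan partners of SGCE, 6 were tested, none was called higher and 2 lower (median -0.60). SGCD, encoding delta-sarcoglycan, was listed at 0 in MHCC97H and HCT116 and went from 3.08 to 0.206 RPKM in A549. SNTB2, encoding a syntrophin, changed by -0.60 (SE 0.12, adjusted p = 0.00781). No gene of the 7 lists was called under GSK126 or S2101. That fit called no gene at all under either compound, so this says nothing particular about the lists. The lists were not examined in the fit without the TSA libraries.

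The TSA calls in the 7 lists changed with the lines in the fit, and so did the calls over all genes. With all 12 libraries 34.1% of all genes were called. Without A549 no gene of any of the 7 lists was called under TSA, and 12 of 16202 genes were called in all. Without MHCC97H, 2 cluster neighbours were called higher and 1 lower, 3 imprinted genes elsewhere higher, 3 maintenance factors lower, 4 gag-derived genes higher and 1 NOTCH pathway gene higher. No IGF2 or SGCE partner was called in that fit, which called 1152 of 16347 genes. Without HCT116, the gag-derived genes again had 7 called higher and none lower, while the maintenance factors had 1 called higher and 3 lower, the IGF2 partners 2 higher and 5 lower, and the SGCE partners 3 lower. Over all genes, 6495 of 16248 were called without HCT116. Without the A549 S2101 library, where 4729 of 16875 genes were called, the counts of the 7 lists differed from those above by at most 1 in each direction.

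**Figure D4:**
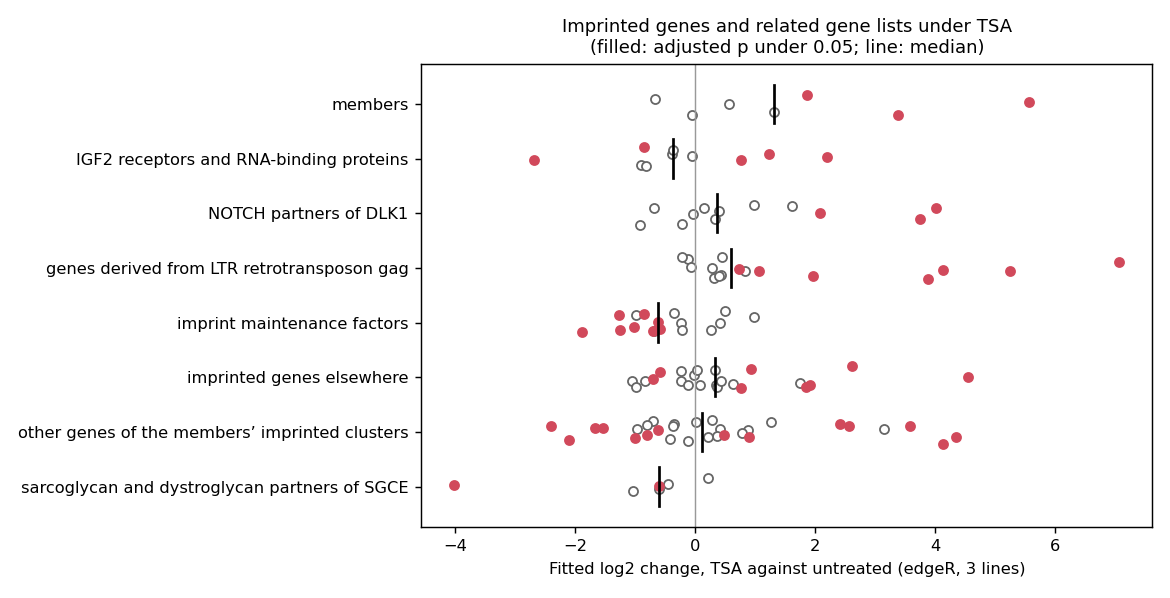
Fitted log2 change under TSA for the 7 tested members and the genes of the 7 related lists, with filled points for an adjusted p under 0.05 and a bar at the median of each list. The called imprint maintenance factors all lie below 0, the called genes derived from LTR retrotransposon gag all lie above 0, and the cluster neighbours lie on both sides. Over all genes tested, 17.1% were called higher and 17.1% lower.

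The 5 genes whose level over the 12 libraries was most like that of PEG10, by Pearson correlation of log2(CPM + 1) among 14874 genes, were ARMC9 (r = 0.97), MPP1 (0.97), SYP (0.96), PRDX1 (0.96) and PIGH (0.95). The points share lines and conditions, and the values are a description. SYP, which encodes synaptophysin of synaptic vesicles, went from 0.356, 1.77 and 1.43 RPKM to 33.8, 32.9 and 9.41 under TSA. PRDX1, a peroxiredoxin gene, went from 455, 976 and 755 RPKM to 1427, 1555 and 1171. Among the other members SGCE was the most like PEG10, at r = 0.68 and place 1194, followed by MEG3 at 0.58 and IGF2 at 0.49. H19 was at -0.26.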

How the data were processed

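Per the labels' protocols, poly(A) RNA was made into 12 libraries with NEBNext kits. Each deposited table lists, per the file headers, a read count and an RPKM value for each gene symbol. The deposited RPKM values use the longest transcript of each gene, per the file headers. The submitters' processing notes name builds GRCh38 and hg38. Aligner, counter and strand setting: not given in the sources used here. An entry naming no gene, found in 11 tables, and 1 gene missing from a table were left out, and 1 gene had no RPKM.

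Counts were fitted with edgeR 4.0.16 (R 4.3.3): TMM scaling (factors 0.89 to 1.11), filterByExpr by condition (16394 genes tested), condition and cell line as terms, all 12 libraries, the quasi-likelihood F test with 6 residual degrees of freedom, and Benjamini-Hochberg adjusted p under 0.05 as a call. The SE is the log2 change over the square root of F. The line pairs treated with untreated libraries, since the labels give both the same line. P-values describe the spread between lines, not between repeat cultures, and a line by compound term could not be tested. The script was tested on simulated data. The 10 genes and all gene lists were chosen with earlier results of these data known. Named genes are all 10, up to 4 called genes per list by size of the log2 change, and the 5 most like PEG10. SNRPN, SNURF, MAGEL2, MKRN3, NPAP1, UBE3A, ATP10A and CDKN1C lie outside this rule and were chosen after their values were seen. Counting intervals are exact at 95% and cover counting error only. Coordinates and promoters are from RefSeq GRCh38.p14, which held all 10 genes and the promoters of 4. Alternatives were another scaling, no filter, no line or condition term, DESeq2, fewer libraries, and, chosen after seeing the data, most fits without the A549 S2101 library, list counts without single lines and means without A549.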

Additional observations from a re-analysis of the deposited data

Results flagged for a closer look

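Within-line log2 ratios of 1 treated to 1 untreated library, on TMM-scaled CPM plus 1, had opposite signs between lines, each at least 0.5 in size and from at least 20 reads, for 5 pairs of gene and compound. The differences between lines were not tested, since each value rests on a single pair of libraries. SGCE under TSA was at 2.97 in MHCC97H and -1.07 in A549. H19 under TSA was at -1.12 in MHCC97H, 1.17 in A549 and 0.73 in HCT116. MEST under TSA was at 0.79 in MHCC97H and -0.78 in HCT116. PEG10 under S2101 was at -0.97 in MHCC97H, 0.56 in A549 and -0.71 in HCT116, where the A549 value comes from the S2101 library that stood apart. NNAT under GSK126 was at 0.51 in MHCC97H and -0.85 in A549.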

How the results depend on the processing

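The count of the 7 tested members called under TSA, 3, was 0 without the line as replicate block (260 of 16394 genes called), 0 to 3 when a line was left out (0 without A549), and 0 in a fit of its 6 libraries alone; it stayed at 3 with RLE size factors, without a filter, with DESeq2 and without the A549 S2101 library. The cause was not tested. Over all genes, 6495 of 16248 were called without HCT116, 1152 of 16347 without MHCC97H and 12 of 16202 without A549. The count under GSK126, 0, was 3 without the TSA libraries, where 2124 of 15763 genes were called. It stayed at 0 in a fit of its 6 libraries alone, where 275 of 14530 genes were called, and with DESeq2. The count in A549, 5, was 3 without the untreated, the GSK126 or the S2101 libraries, and the cause was not tested. Over all genes, the calls in A549 went from 6454 of 16394 to 4027 of 16118, 4094 of 16127 and 3444 of 16074. Without the 3 TSA libraries the count in A549 was 6, beside 8233 of 15763 genes called. That fit also called 6 members in MHCC97H and 6 in HCT116, beside 9902 and 10049 genes. Log2 changes that turned sign without the replicate block were SGCE -0.13 and H19 -1.04 under TSA, NNAT -0.12 under GSK126, and PEG10 0.39 and IGF2 -0.011 under S2101. Leaving out a line gave under TSA SGCE -0.43 to 2.35, MEST -0.51 to 0.31 and NNAT -1.20 to 0.32, under GSK126 NNAT -0.32 to 1.15, and under S2101 PEG10 -0.82 to 0.18, SGCE -0.21 to 0.028, IGF2 -0.20 to 1.43, MEST -0.15 to 0.0089 and NNAT -0.44 to 0.83. NNAT under S2101 was 0.038 in its 6 libraries alone and 0.14 without the A549 S2101 library. PEG10 in MHCC97H was 0.55 without the condition term and SGCE in HCT116 was -0.0085 without the S2101 libraries. The block changed no other call. The number of members at the detection limit followed the limit by construction, and 3 of the 5 genes most like PEG10 were the same with a pseudocount of 0.1. With 1 library per line and condition, no change in a single line has a replicate check, and counts of PEG3, DLK1, NDN and NNAT limit what can be seen of these 4 genes.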

Other observations

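SNRPN, a splicing factor gene of the Prader-Willi region, where NDN lies, with paternal expression, had 648 to 735 reads in the 4 MHCC97H libraries and 605 to 779 in those of A549. In HCT116 it had 0, 0, 1 and 0 reads in the untreated, TSA, GSK126 and S2101 libraries, and SNURF, which shares its transcripts, had 0 in all 4, against 2 to 8 in the libraries of the other lines. NDN and MAGEL2 were at 0 reads in all 4 HCT116 libraries too, although they were also at 0 in MHCC97H. Some other genes of the region had reads in HCT116: MKRN3 had 88 to 220, NPAP1 47 to 80 and UBE3A 1228 to 2347 per library. ATP10A, listed with them, had 0 reads in all 4 HCT116 libraries, against 60 to 147 in MHCC97H and 45 to 299 in A549. TSA left SNRPN at 28.6 RPKM in MHCC97H and 25.8 in A549, against 23.1 and 23.2 untreated. These genes were chosen after their values were seen.

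CDKN1C, a cell cycle inhibitor gene of the cluster next to H19 and IGF2, was higher under GSK126 than untreated in 3 of 3 lines. It was not called, in a fit that called no gene under GSK126, and was not examined in the fit without the TSA libraries. It had 93 and 155 reads in MHCC97H, 3 and 27 in A549, and 172 and 337 in HCT116, untreated and under GSK126. The rise was not particular to GSK126. CDKN1C was at 2.981, 0.09849 and 5.422 RPKM untreated and at 4.871, 0.8926 and 11.96 under GSK126, in the same order of lines. Under TSA it was higher than both in each line, at 8.43, 6.661 and 14.04 RPKM. The fit of all 12 libraries called it higher under TSA (log2 change 2.41, SE 0.683, adjusted p = 0.0255). Under S2101 it was at 3.045, 0.9782 and 6.018 RPKM. The A549 value there rests on 29 reads in the library that stood apart.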
